A study of Mus musculus with 30 samples.

Results

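The lysosome is the acidic compartment in which cells break down proteins, lipids and sugar chains. Tfe3, Tfeb and Mitf are related transcription factors that bind an E-box motif in front of many lysosome genes, and they are held in the cytoplasm when the kinase complex mTORC1 is active at the lysosome. Flcn and its partners Fnip1 and Fnip2 act on the small GTPases Rragc and Rragd at the lysosomal surface, which bring these factors to mTORC1. Here 42 genes of this system were followed, 42 of 55421 genes in the count table, chosen by symbol: the 3 factors, 5 regulators (Flcn, Fnip1, Fnip2, Rragc and Rragd), 6 cathepsins, 12 other hydrolases and their helpers, 7 genes of the membrane, of transport and of cargo, and 9 genes of the V-ATPase, the pump that acidifies the lysosome. Tfe3 is X-linked and lies inside the deleted regions A and AB, so that the lines with these deletions keep 1 copy of it. The comparisons ask whether the other genes followed Tfe3.

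RNA was measured by bulk RNA-seq in 30 libraries of mouse embryonic stem cells (mESCs) from a 129/Sv x Cast/Ei cross, all labelled female. The 129/Sv allele is called Mus below. XX wild type and XX Rnf12+/- cells had 2 libraries each; Rnf12 encodes a ubiquitin ligase needed for X inactivation, and 1 of its 2 copies is disrupted in XX Rnf12+/-. Cells with a single X, labelled XCastO129 (here XCastO, with the Cast X) and X129OCast (here XMusO, with the Mus X), had 2 libraries each. The study's methods place the Rnf12 disruption on the Mus X and name an Rnf12+/- parent for all bulk RNA samples, so that XMusO would keep the disrupted copy and XCastO the intact one; the labels do not give it. The other 22 libraries were of 13 lines that are Rnf12+/- and also lack a stretch of the Mus X: deletions C, D, E, F, H, I, I-TEL, J and K with 2 clones each, and deletions A, B, AB and C-G with 1 clone each. AB is one stretch that takes in the regions A and B, and C-G is a longer stretch that takes in the region C. J and I-TEL were made from a second Rnf12+/- founder. As a line is 1 or 2 clones, what a deletion did and what a clone acquired cannot be told apart in a line with 1 clone and such a clone is assumed in the tests to vary like the clones of other lines. The study calls its replicates independent clones, while the labels of the 4 groups without a deletion give only a replicate number. Fits with these groups share 1 estimate of the spread over all libraries fitted, which may in part be technical.

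The library names fall into 3 batches. A batch of 6 held deletion E and the XX cells with and without the Rnf12 disruption, a batch of 20 held the other 12 deletion lines, and a batch of 4 held the XO cells, which were read as single reads where all others were read as pairs. Total counts were 20374510 to 21180709, 8815980 to 10679746 and 14997997 to 16494587 per library in these batches. Each library showed the stem cell genes Pou5f1, Nanog, Esrrb, Sox2, Zfp42, Klf4 and Tfcp2l1, with a summed level of 4212 to 6441 TPM (a count per base of exon, on a scale that sums to the same total in all libraries). The cells were grown on feeder fibroblasts, which were removed by pre-plating, and the summed level of 8 fibroblast genes was 68.5 to 330 TPM. In bulk samples, fewer cells of a type and less RNA per cell cannot be told apart. By the median of its autosomal genes against the median of the batch of 20, chromosome 8 was higher by 0.31 to 0.39 on the log2 scale in both clones of J and of I-TEL and in clone 2 of F, and chromosomes 1 and 14 were higher by 0.51 and 0.52 in clone 1 of I.

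A match to the E-box is the feature of these genes that a reader can see in the sequence. Promoters (250 bases before to 50 bases after each start, RefSeq, GRCm38.p6) were found for 37 of the 42 genes. The letters CACGTG, which read the same on both strands, occurred in 16 of these 37 (43.2%), against 8.09% of 27025 genes with a promoter and 12.5% of the 8221 of these that were expressed. The longer TCACGTGA, which contains the first, occurred in 7 of 37 (18.9%), against 1.12% of all and 2.44% of the expressed genes. A match is a description of letters and not a mapped binding site. Windows of 30 bases around the core, in capitals, are shown for some of the genes that carry it. Each runs 5′ to 3′ on the strand of the gene:
Fnip1: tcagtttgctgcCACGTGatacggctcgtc
Rragc: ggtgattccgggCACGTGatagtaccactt
Ctsa: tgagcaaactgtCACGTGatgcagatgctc
Ctsd: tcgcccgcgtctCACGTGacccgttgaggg
Lamp1: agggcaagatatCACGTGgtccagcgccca
Gla: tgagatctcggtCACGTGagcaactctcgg

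These windows lie at chr11:54438092-54438121 (Fnip1, plus strand), chr4:123917309-123917338 (Rragc, plus), chr2:164833749-164833778 (Ctsa, plus), chr7:142387908-142387937 (Ctsd, minus), chr8:13159088-13159117 (Lamp1, plus) and chrX:134601182-134601211 (Gla, minus). Ctsa, Ctsd and Gla each carry a second core in the same promoter, and Lamp1 carries 4. The core was also found for Atp6v0d1, Atp6v0e, Atp6v1a, Ctsf, Ctsl, Gaa, Glb1, Mcoln1, Naglu and Sgsh. It was not found for Flcn, Fnip2, Sqstm1, Tfeb and Hexa, among other genes whose levels are described below.

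In XX Rnf12+/- cells, 41 of the 42 genes had a mean level over 5 TPM and entered the tests with 11703 expressed genes in all; Sgsh, a sulfatase of heparan sulfate breakdown, stayed at 4.51 TPM. Lamp1, the main glycoprotein of the lysosomal membrane, was highest at 569 TPM, followed by Sqstm1, a cargo receptor of autophagy, at 369 TPM, the protease Ctsd at 327 TPM and Psap, the precursor of the saposins, at 290 TPM. Levels per length of the 6 cathepsins ran from 16.4 to 327 TPM with a median of 143 TPM, and those of the 9 V-ATPase genes from 21.1 to 225 TPM with a median of 115 TPM. Among the factors, Tfe3 stood at 79.5 TPM and Tfeb at 68.6 TPM, while Mitf stood at 8.70 TPM. The order of Tfe3 and Tfeb held in each of the 2 libraries, which gave 76.6 and 82.3 TPM for Tfe3 and 67.8 and 69.4 TPM for Tfeb.

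Tfe3 (chrX:7762560-7775202, plus strand) was first compared between 1 and 2 copies. It measured 48.2 TPM in deletion A and 57.2 TPM in deletion AB, against 87.0 to 112 TPM in the other 18 libraries of the same batch, so the 2 sets did not overlap. In the total count Tfe3 fell by 0.89 on the log2 scale (SE 0.109, edgeR adjusted p = 6.04e-05), where 0.145% of the 11703 genes were called. Counted per copy, the difference was 0.11 (SE 0.0994, edgeR adjusted p = 0.761). Reads that could be assigned to an allele showed the loss of the Mus copy: 3 of 151 such reads of Tfe3 were Mus in deletion A and 2 of 217 in deletion AB, against 46.8 to 56.4% in the other 18 libraries. The Cast copy of Tfe3 gave 16.8 and 20.2 CPM (allele reads relative to all counts of the library) in A and AB and 16.6 ± 1.89 (SD, n = 18) in the others, a difference that did not pass an exact permutation test (two-sided, p = 0.242, adjusted over 2 such tests 0.242).

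**Figure D1:**
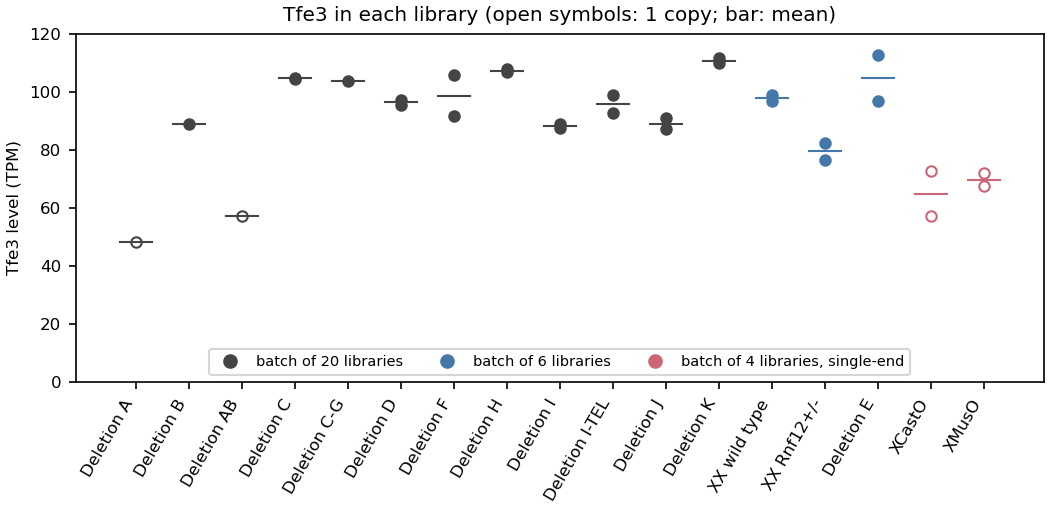
Level of Tfe3 (TPM, linear axis from 0) in each of the 30 libraries by group, with open symbols for 1 copy, bars for the group mean and colours for the 3 library batches. Deletions A (48.2 TPM) and AB (57.2 TPM) sit below all other libraries of their batch, and the XO libraries lie between 57.1 and 72.7 TPM on 1 copy.

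None of the 41 genes passed the edgeR test between the 2 libraries with 1 copy of Tfe3 and the 18 with 2 copies, in a contrast that called 4 of 11703 genes (0.0342%). DESeq2 also called 0. At an unadjusted p under 0.05 there were 8 of the 41, and the share of all genes at that threshold is not given here. The 41 include Tfe3 itself, counted per copy, and 9 of them, Tfe3 among these, had a positive difference per copy. The median difference of the 41 was -0.19 on the log2 scale, beside -0.01 over all genes tested. All 5 regulators had negative differences, with a median of -0.54, and so had all 9 V-ATPase genes, with a median of -0.25. Of the latter, Atp6v0d1 and Atp6v1b2 lie on chromosome 8, where the median of all genes in this contrast was -0.12. The part of the chromosome 8 gains among the 18 other libraries was not tested. A fit with 1 term per line takes the spread from clones of 1 line and not from the differences between lines. It called 14 of the 41, of which 3 were higher and 11 lower. The share of all genes called in that fit was not counted, so these numbers have no background beside them. Markers of the stem cell state differed in the same direction as most of these genes, with 6 of 7 negative and a median of -0.46, and all 4 expressed fibroblast markers were positive with a median of 0.32. The macrophage markers summed to 107 TPM in A and 47.3 TPM in AB, where the batch ran from 47.3 to 190 TPM; Laptm5 alone gave 80.3 and 37.1 TPM of these sums and the other 4 markers 27.1 and 10.2 TPM. The part of these markers in the result was not tested.

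Across the 20 libraries of the batch, the log2 level of 26 of the 35 expressed autosomal members correlated positively with that of Tfe3, with a median Pearson r of 0.20, beside 47.5% positive and a median r of -0.02 over 11204 expressed autosomal genes. These are descriptions over libraries that share lines and clones. By Pearson r the coefficients were largest for the V-ATPase subunit Atp6v0c (r = 0.57, Spearman rho 0.38) and for Rragc (r = 0.55, rho 0.62); by rho another subunit, Atp6v0e, stood above both (r = 0.44, rho 0.66). The lowest r was that of Naglu, a glucosaminidase of heparan sulfate breakdown (r = -0.39, rho -0.41). Without A and AB, 26 of 35 were still positive, with a median r of 0.18, while r was 0.20 for Atp6v0c, 0.46 for Rragc and 0.71 for Atp6v0e.

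The 2 lines with 1 copy of Tfe3 were then taken apart, each against the mean of the other 11 lines of the batch. In deletion AB 11 of 41 genes fell and 0 rose, where 1.87% of all genes were lower and 1.6% higher, and the median of the 41 was -0.30 beside -0.0017 over all genes. In deletion A 3 fell and 1 rose, where 3.88% of all genes were lower and 4.73% higher, and the median was -0.07. Both are single clones, and both counts depend on the reference: without J and I-TEL the count of calls was 6 in AB and 2 in A. It was 6 in AB without either clone of J and 7 without either clone of C, clone 2 of D or clone 2 of H. In A it was 2 without either clone of H or J or clone 1 of D, 7 without clone 2 of F, and 8 without clone 1 of F or clone 1 of I.

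The genes that fell in AB came from several roles. Flcn measured 32.3 TPM in AB, the lowest of the 20 libraries, and 50.0 TPM in A, with a difference in AB of -0.81 (SE 0.137, adjusted p = 0.00675). Rragc measured 44.6 TPM in AB and 50.2 TPM in A, where the median of the 20 libraries was 73.2 TPM, and it fell by 0.77 in AB (SE 0.147, adjusted p = 0.0144) and by 0.56 in A (SE 0.145, adjusted p = 0.0327). Fnip1 fell by 0.80 in AB (SE 0.206, adjusted p = 0.0488). These 3 encode parts of the Flcn and Rag pathway, and of them Rragc was the gene called in both lines.

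Gla, the α-galactosidase that is deficient in Fabry disease, is X-linked but has 2 copies in A and AB. It measured 23.9 TPM in AB and 42.7 TPM in A, and fell by 0.97 in AB (SE 0.139, adjusted p = 0.00301). Sqstm1 measured 243 TPM in AB and 427 TPM in A and fell by 0.66 in AB (SE 0.118, adjusted p = 0.00879). Ctsa, a carboxypeptidase that protects other hydrolases, measured 69.2 TPM in AB and 115 TPM in A and fell by 0.61 (SE 0.133, adjusted p = 0.0248). Between AB and A these 3 genes differed by -0.86, -0.84 and -0.76 on the log2 scale. This sets 1 clone against 1 clone, so it has no replicate check and says nothing of the 2 deletions as such.

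The rest that fell in AB were Atp6v0c (-0.59), Lamp1 (-0.46), Ctsd (-0.42), the sterol carrier Npc2 (-0.39) and Mitf (-1.12), with SEs of 0.1 to 0.276 and adjusted p-values between 0.00879 and 0.0488. In these libraries Lamp1 stood at 358 TPM in AB, below all other 19 libraries of the batch, and Mitf at 3.44 TPM. Lamp1 lies on chromosome 8, where the median of all genes in AB was -0.10. In A, Tfeb fell by 0.50 (SE 0.145, adjusted p = 0.0454), from a batch median of 57.1 TPM to 38.5 TPM, and the V-ATPase subunit Atp6v1c1 fell by 0.32 (SE 0.091, adjusted p = 0.044).

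The gene that rose in A was Gpnmb, a glycoprotein of lysosomes that macrophages express strongly. It measured 17.2 TPM in A, the highest of the batch, where the median was 7.41 TPM, and rose by 1.31 (SE 0.27, adjusted p = 0.0134). In the same line 2 of 4 expressed macrophage markers were higher, with a median of 1.33 over the 4, and 0 of 4 fibroblast markers were called, with a median of 0.62 and 1 at an unadjusted p under 0.05. Gpnmb also stood at 18.4 TPM in XX Rnf12+/- replicate 1 and 9.06 TPM in replicate 2, where the fibroblast genes summed to 313 and 97.5 TPM. The macrophage markers Tyrobp, Csf1r, Adgre1 and Cd14 summed to 55.3 and 13.9 TPM in the same libraries, and Laptm5 measured 108 and 134 TPM. The part of other cells in the level of Gpnmb was not tested.

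Over all 12 lines of the batch, 95 of the pairs of gene and line passed the test, 53 higher and 42 lower, and 33 of the 95 (34.7%) were in deletion C, which also held 30.2% of the 16749 such pairs over all genes. In deletion C, 31 of the 41 genes rose and 2 fell, where 21.9% of all genes were higher and 21.3% lower. The median of the 41 was 0.41 on the log2 scale beside -0.01 over all genes tested. Tfe3 has 2 copies in this line and measured 105 TPM in both clones, with a difference of 0.08 (SE 0.0612, adjusted p = 0.318). The other factors fell: Tfeb measured 33.9 and 36.3 TPM in the 2 clones, lower than each of the other 18 libraries, and fell by 0.68 (SE 0.106, adjusted p = 1.64e-04), and Mitf, at 4.58 and 4.57 TPM, fell by 0.68 (SE 0.19, adjusted p = 0.01).

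**Figure D2:**
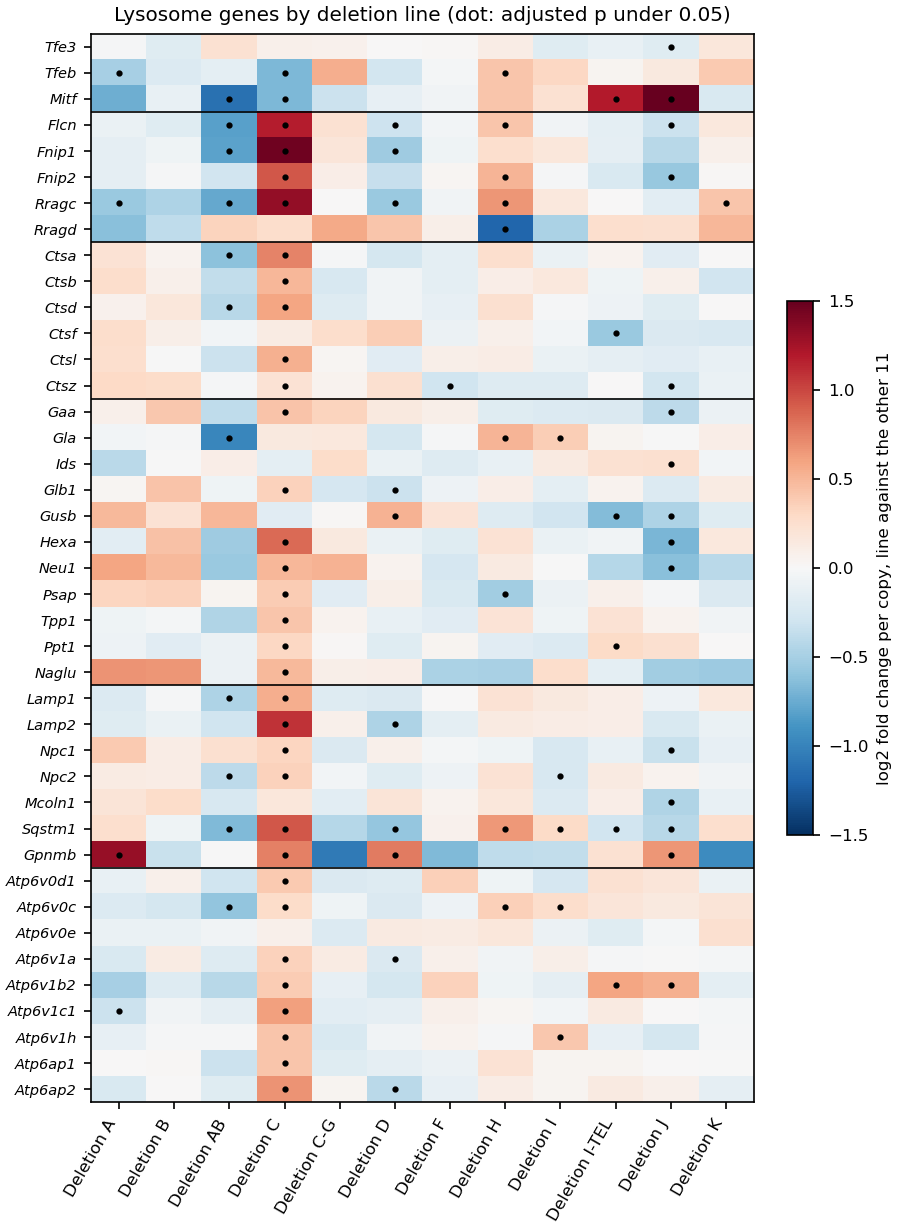
Difference per copy (log2, colour) of each of 41 genes in each of 12 deletion lines against the mean of the other 11 lines, in rows by role from the factors at the top to the V-ATPase at the bottom, with a dot where the edgeR adjusted p was under 0.05 and colours that end at 1.5. Deletion C holds 33 of the 95 dots (34.7%, beside 30.2% of the calls over all genes), of which 31 are higher.

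In deletion C the 5 regulators had a median of 1.17, above that of each other role. Fnip1 measured 67.9 and 71.2 TPM in the 2 clones against 15.8 to 37.6 TPM in the other 18 libraries and rose by 1.46 (SE 0.119, adjusted p = 7.84e-07). Rragc measured 181 and 156 TPM against 43.3 to 119 TPM and rose by 1.32 (SE 0.086, adjusted p = 1.17e-07). Flcn measured 116 and 113 TPM against 32.3 to 74.6 TPM and rose by 1.17 (SE 0.0809, adjusted p = 1.99e-07). Fnip2, at 60.1 and 72.3 TPM, rose by 0.93 (SE 0.116, adjusted p = 2.68e-05). For each of these 4 genes both clones lay above all other 18 libraries, while Rragd, at 26.9 and 23.2 TPM, was not called.

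Among the enzymes, 5 of 6 cathepsins and 8 of 11 other hydrolases rose in deletion C. Ctsa measured 151 and 177 TPM and rose by 0.74 (SE 0.0846, adjusted p = 1.28e-05). Ctsd, an aspartic protease, measured 428 and 470 TPM against 236 to 364 TPM elsewhere in the batch and rose by 0.59 (SE 0.07, adjusted p = 1.83e-05). Hexa, the β-hexosaminidase subunit lost in Tay-Sachs disease, measured 298 and 340 TPM and rose by 0.85 (SE 0.122, adjusted p = 8.52e-05). The cathepsin that was not called was Ctsf, and the hydrolases that were not called were Gla, Ids and Gusb.

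Of the 7 membrane, transport and cargo genes 6 rose, the exception being the calcium channel Mcoln1. Sqstm1 measured 665 and 673 TPM against 240 to 596 TPM in the others and rose by 0.93 (SE 0.0738, adjusted p = 6.78e-07). Lamp1 measured 663 and 695 TPM and rose by 0.54 (SE 0.0697, adjusted p = 3.57e-05). Of the V-ATPase genes 8 of 9 rose, led by Atp6v1c1 at 87.0 and 88.2 TPM against 47.3 to 67.3 TPM, with 0.62 (SE 0.0596, adjusted p = 3.18e-06), and by the accessory subunit Atp6ap2 with 0.67 (SE 0.0948, adjusted p = 7.56e-05). In all, 16 of the 41 genes lay above the other 18 libraries in both clones, counted per copy, beside 11.5% of the autosomal genes.

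Other genes of the compartment, from lists that do not overlap with the 42, were called in the same line, where 21.9% of all genes were higher and 21.3% lower. Of 33 other lysosome genes 20 rose and 0 fell, with the cystine carrier Ctns at 0.99, the progranulin gene Grn at 0.70 and Cd63 at 0.65. Of 9 other V-ATPase genes 6 rose and 0 fell, and of 22 autophagy genes 10 rose, among them Gabarap by 0.77, and 1 fell. Of 16 genes of the Rag, Ragulator and mTORC1 machinery 3 rose and 6 fell. Fibroblast markers did not separate this line, with sums of 126 and 103 TPM inside the range of the batch. Macrophage markers summed to 109 and 136 TPM, also inside their range in the batch. Laptm5 alone gave 95.2 and 126 TPM of these sums and the other 4 macrophage markers 14.2 and 10.4 TPM. The median difference of each autosome in deletion C lay between -0.07 and 0.06.

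Deletion C-G lacks the region C as part of a longer stretch. In this clone 0 of 41 genes were called by edgeR, where 0.829% of all genes were called, and the median of the 41 was 0.01. At an unadjusted p under 0.05 there were 6, and the share of all genes at that threshold is not given here. Fnip1 was at 31.0 TPM, Flcn at 63.2 TPM, Rragc at 73.5 TPM and Sqstm1 at 284 TPM in C-G. The difference between deletion C and deletion C-G was tested directly, with 2 clones against 1, whose spread is assumed to be that of the others: 21 of 41 genes were higher in C and 1, Tfeb, was lower, where 12% of all genes were higher and 12.6% lower. Sqstm1 differed by 1.24 (SE 0.139, adjusted p = 8.73e-05), Rragc by 1.20 (SE 0.165, adjusted p = 3.26e-04), Fnip1 by 1.17 (SE 0.229, adjusted p = 0.00263) and Tfeb by -1.13 (SE 0.157, adjusted p = 3.48e-04). In C-G, fibroblast genes summed to 73.8 TPM and macrophage genes to 81.9 TPM, both lower than in C. Of the macrophage sum in C-G, Laptm5 gave 75.8 TPM and the other 4 markers 6.04 TPM. Of the expressed markers, 2 of 4 for fibroblasts and 1 of 4 for macrophages were called higher in C, and their part was not tested. Without clone 1 of deletion C the count against C-G was 14, and without clone 2 it was 16.

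**Figure D3:**
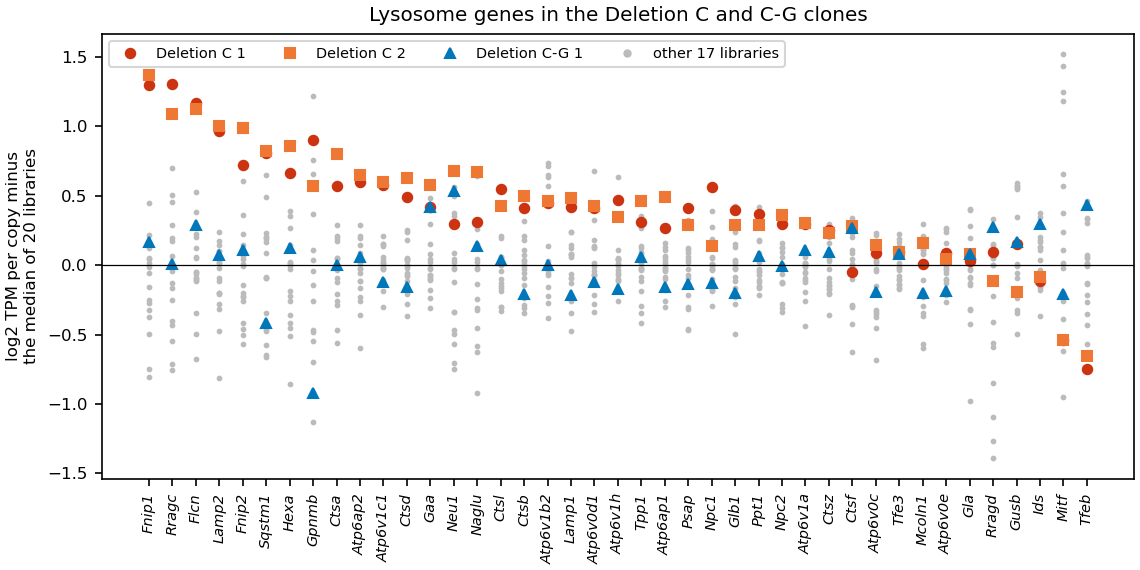
Level per copy of each of 41 genes (log2 TPM per copy minus the median of the 20 libraries of the batch) in both clones of deletion C, in the C-G clone and in the other 17 libraries, ordered by the mean of the C clones. Flcn, Fnip1, Fnip2 and Rragc of both C clones lie above all other libraries and Tfeb lies below, while the C-G clone stays within the range of the others for these 5 genes.

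The X-linked genes allow a comparison of the same kind as for Tfe3. Lamp2 (chrX:38401357-38456454, minus strand), the second main membrane glycoprotein and a receptor for chaperone-mediated autophagy, is on 1 copy in C and C-G. It measured 28.21 and 29.02 TPM in the C clones and 15.2 TPM in C-G, against 16.5 to 34.2 TPM in the 17 libraries with 2 copies, so that the C clones were inside the range of cells with 2 copies and C-G was below it. Per copy Lamp2 rose by 0.83 (SE 0.156, edgeR adjusted p = 0.00581), where 6.84% of all genes were called in this contrast. The difference in the total count was -0.17 (SE 0.168, adjusted p = 0.552). The Cast copy gave 2.75 to 4.08 CPM in these 3 libraries and 0.727 to 2.74 in the other 17, a difference of the means (3.52 against 1.75) at the smallest p this exact permutation test can give (two-sided, p = 0.00175, adjusted over 2 tests 0.00351). The test took each library as independent, while 2 of the 3 are clones of deletion C, so its p does not measure the spread between lines. Of the lines with 1 copy, C-G alone was at 0.08 against the other lines (SE 0.195, adjusted p = 0.908), and C differed from C-G by 0.92 (SE 0.236, adjusted p = 0.0121). Leaving out either C clone gave 0.70 and 0.67, neither past the threshold.

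For the other X-linked genes no change per copy passed the test. The contrasts called 0.0427% of all genes for Atp6ap2, 0.0342% for Atp6ap1 and for Ids, and 17.6% for Gla. Atp6ap2 on 1 copy in AB measured 50.4 TPM, the lowest of the batch, with a difference per copy of -0.22 (SE 0.284, adjusted p = 0.999). Atp6ap1, an accessory subunit of the V-ATPase, measured 71.6 TPM in C-G, where it has 1 copy, against 130 to 224 TPM in the other 19 libraries. Its total fell by 1.21 (SE 0.203, adjusted p = 0.00303), and per copy the difference was -0.21 (SE 0.185, adjusted p = 0.999). In deletion E it measured 82.7 and 98.2 TPM against 181 and 151 TPM in XX Rnf12+/- of the same batch, a fall of the total by 0.90 (SE 0.105, adjusted p = 4.49e-05) where 0.863% of all totals were called, with 0.10 per copy (SE 0.104, adjusted p = 0.79).

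Ids, the sulfatase missing in Hunter syndrome, measured 19.8 and 20.6 TPM in deletion E and 31.8 and 25.8 TPM in XX Rnf12+/-. Per copy this was 0.46 (SE 0.128, adjusted p = 0.138), and 0.63 (adjusted p = 0.0372) without XX Rnf12+/- replicate 1. In C-G, with 10.9 TPM and the lowest level of the batch, the difference per copy was 0.25 (SE 0.195, adjusted p = 0.999). Gla on 1 copy in J and I-TEL measured 21.5 to 24.0 TPM in these 4 libraries, where AB on 2 copies was also at 23.9 TPM and the rest ran from 35.1 to 62.2 TPM. Its total fell by 1.06 (SE 0.17, adjusted p = 1.06e-04) and the difference per copy was -0.06 (SE 0.16, adjusted p = 0.841), and for Gla the deletion and the second founder cannot be told apart.

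**Figure D4:**
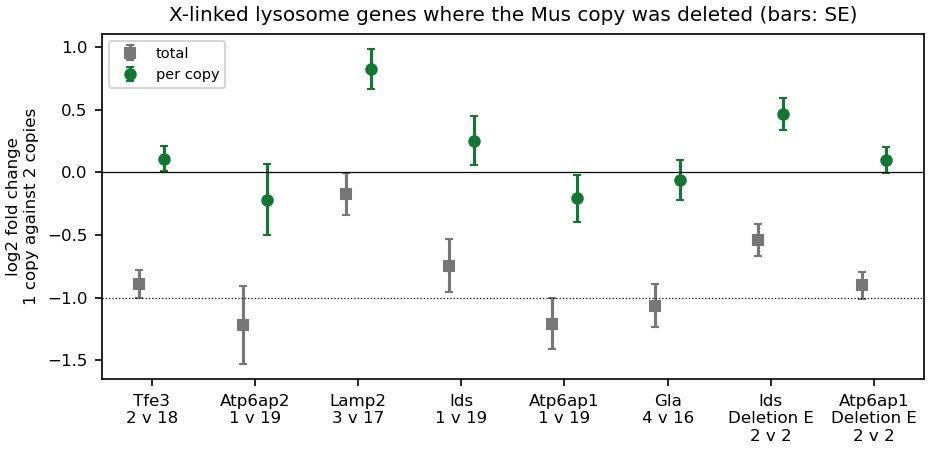
Difference (log2) between libraries with 1 copy and with 2 copies of each of 6 X-linked genes, as total level (squares) and per copy (circles), with bars for the SE and, under each symbol, the number of libraries with 1 and with 2 copies. The total lies near the dotted line at -1 for Tfe3, Atp6ap2, Atp6ap1 and Gla, and Lamp2 is the gene whose value per copy, 0.83, passed the test.

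In the remaining lines smaller sets moved. In deletion D 8 genes fell and 2 rose, where 8.31% of all genes were lower and 8.56% higher. Sqstm1, at 240 and 256 TPM, fell by 0.58 (SE 0.0849, adjusted p = 0.00123), and Rragc, at 43.3 and 55.4 TPM, fell by 0.56 (SE 0.104, adjusted p = 0.0043). In the same line Gpnmb rose by 0.78 (SE 0.209, adjusted p = 0.0215), with the fibroblast genes summing to 235 and 226 TPM, and all 4 expressed fibroblast markers and 3 of 4 macrophage markers were called higher; their part was not tested. In deletion H 7 genes rose and 2 fell, where 4.03% were higher and 2.8% lower. Sqstm1, at 535 and 596 TPM, rose by 0.65 (SE 0.0757, adjusted p = 2.8e-04), and Rragc, at 104 and 119 TPM, rose by 0.66 (SE 0.0918, adjusted p = 0.00107), while Rragd, at 9.58 and 10.5 TPM and below all other libraries, fell by 1.18 (SE 0.199, adjusted p = 0.00343).

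In deletion J 11 genes fell and 4 rose, where 11% of all genes were lower and 12.8% higher, and in I-TEL 3 fell and 3 rose, where 7.75% were lower and 11.2% higher. Mitf was highest in these lines, at 18.0 and 19.1 TPM in J and 15.1 and 15.8 TPM in I-TEL, where all other libraries of the batch were at 10.5 TPM or below. Tfe3, on 2 copies in J and at 87.0 and 90.9 TPM, fell there by 0.18 (SE 0.0627, adjusted p = 0.0492). Mitf rose by 1.52 in J (SE 0.147, adjusted p = 2.07e-05) and by 1.19 in I-TEL (SE 0.152, adjusted p = 1.49e-04). For all genes called in J and I-TEL, the deletion and the second founder cannot be told apart. Atp6v1b2, a V-ATPase subunit on chromosome 8, measured 190 to 212 TPM in these 4 libraries and 209 TPM in clone 2 of F, and rose by 0.53 in J (SE 0.101, adjusted p = 0.00179) and 0.59 in I-TEL (SE 0.101, adjusted p = 0.00108), where the median of all chromosome 8 genes was higher by 0.38 and 0.39. In deletion I 4 genes rose and 1 fell, where 6.25% were higher and 4.95% lower; Atp6v1h, on chromosome 1, measured 35.8 TPM in clone 1 and 23.7 TPM in clone 2 and rose by 0.40 (SE 0.114, adjusted p = 0.0369), with the chromosome 1 median higher by 0.32. In K 1 gene rose (Rragc, 0.41), in F 1 fell (Ctsz, -0.30) and in B 0 were called by edgeR, where 1.92%, 6.93% and 0.453% of all genes were called. In B 8 genes had an unadjusted p under 0.05, and the share of all genes at that threshold is not given here.

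The XO cells carry 1 copy of all 6 X-linked genes. Tfe3 measured 57.1 and 72.7 TPM in XCastO and 67.5 and 71.9 TPM in XMusO, against 76.6 and 82.3 TPM in XX Rnf12+/- and 98.9 and 96.8 TPM in XX wild type. In the total count it differed from XX Rnf12+/- by -0.17 in XCastO (SE 0.0969, adjusted p = 0.163) and by -0.03 in XMusO (SE 0.0968, adjusted p = 0.787). The XX Rnf12+/- level lay below every other library with 2 copies, which ran from 87.0 to 113 TPM. By these levels, Tfe3 fell more in total and rose less per copy against XX wild type. Per copy against XX Rnf12+/-, Tfe3 rose by 0.83 in XCastO (SE 0.0975, adjusted p = 3.43e-06) and by 0.97 in XMusO (SE 0.0977, adjusted p = 3.3e-07). Library batch, read type, the loss of an X, the strain of the X that is kept and, by the methods, the state of Rnf12 cannot be told apart in this comparison, for Tfe3 and for all genes that follow.

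Most of the lysosome genes were lower in XO cells. In XCastO 24 of 41 fell and 1, Tfe3, rose, where 20.4% of all genes were lower and 21% higher, with a median of -0.44 beside -0.01 over all genes. In XMusO 28 fell and 5 rose, where 27.5% were lower and 26% higher, with a median of -0.54 beside -0.03. Both comparisons share the XX Rnf12+/- libraries. With XX wild type as the reference, 22 fell and 1 rose in XCastO, where 21.5% of all genes were lower and 22.2% higher, and 28 fell and 4 rose in XMusO, where 28.2% were lower and 26.8% higher. With only the 4 libraries of the 2 groups in the fit, 9 fell and 1 rose in XCastO, and 28 fell and 3 rose in XMusO. The shares of all genes called were not counted for these fits.

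By role, 5 of 6 cathepsins fell in both. Ctsl, a cysteine protease, measured 163 and 126 TPM in XX Rnf12+/-, 70.0 and 78.6 TPM in XCastO and 66.1 and 65.5 TPM in XMusO, and fell by 0.84 (SE 0.129, adjusted p = 6.03e-05) and 0.98 (SE 0.13, adjusted p = 6.76e-06). Of the V-ATPase genes 7 and 8 of 9 fell, with Atp6v1c1 down by 0.48 in XCastO (SE 0.0725, adjusted p = 5.46e-05) and by 0.55 in XMusO (SE 0.0726, adjusted p = 6.8e-06). Lamp1 measured 341 and 333 TPM in XCastO and 284 and 280 TPM in XMusO, where XX Rnf12+/- had 621 and 517 TPM, and fell by 0.63 (SE 0.1, adjusted p = 7.82e-05) and 0.86 (SE 0.1, adjusted p = 1.7e-06). Sqstm1 fell by 0.53 (SE 0.107, adjusted p = 7.43e-04) and 0.82 (SE 0.107, adjusted p = 6.02e-06), and Npc2 by 0.53 (SE 0.0916, adjusted p = 1.93e-04) and 0.97 (SE 0.0926, adjusted p = 1.73e-07). For Lamp1, Ctsl, Sqstm1, Npc2 and Atp6v1c1 the 4 XO libraries did not overlap with the 4 XX libraries of the 2 groups without a deletion. The share of all genes without such an overlap was not counted.

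Tfeb and Mitf were lower in XO cells as well. Tfeb measured 39.8 to 47.9 TPM over the 4 XO libraries and 67.8 to 73.3 TPM over the 4 XX libraries without a deletion, and fell by 0.47 in XCastO (SE 0.117, adjusted p = 0.00391) and 0.56 in XMusO (SE 0.117, adjusted p = 6.12e-04). Mitf, at 3.31 to 5.23 TPM, fell by 0.88 (SE 0.233, adjusted p = 0.00587) and 1.16 (SE 0.237, adjusted p = 5.37e-04). Of the regulators Rragc, Fnip1 and Flcn fell in both, Fnip1 by 1.41 in XMusO (SE 0.214, adjusted p = 3.01e-05), and Fnip2 and Rragd rose in XMusO. The X-linked Lamp2 fell per copy by 1.02 in XCastO (SE 0.211, adjusted p = 9.25e-04) and 1.33 in XMusO (SE 0.215, adjusted p = 5.61e-05), and Atp6ap2 by 0.93 (SE 0.139, adjusted p = 4.92e-05) and 0.90 (SE 0.139, adjusted p = 3.39e-05). Lamp2 measured 5.89 and 10.4 TPM in XCastO and 6.49 and 6.31 TPM in XMusO, where XX Rnf12+/- had 35.8 and 35.7 TPM. In XCastO replicate 2, 36 of 86 reads of Lamp2 with an allele were Mus, an allele these cells lack. The level and the difference per copy include such reads, whose source was not tested.

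**Figure D5:**
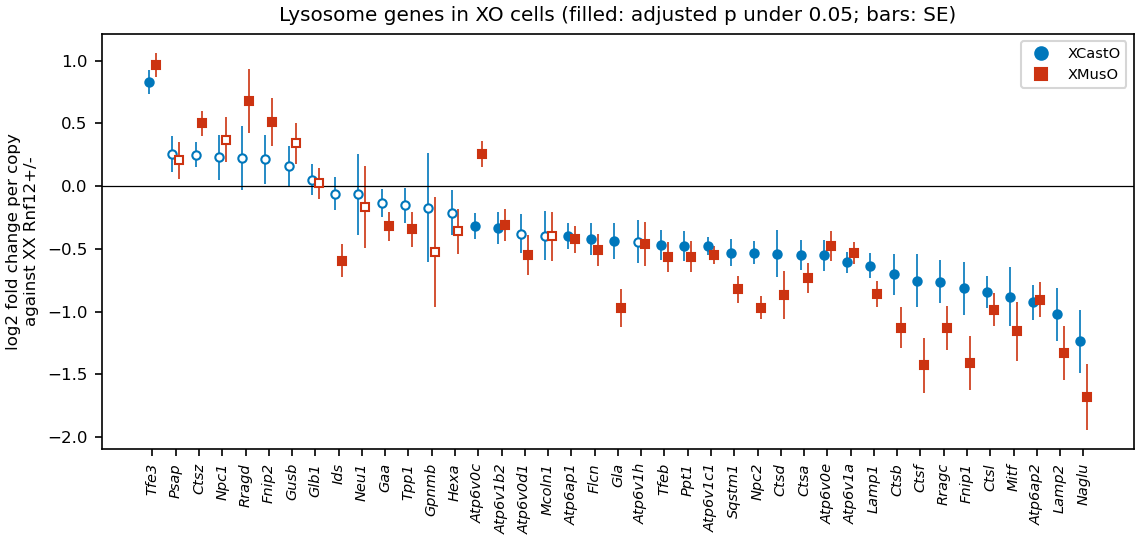
Difference per copy (log2) of each of 41 genes in XCastO (circles) and XMusO (squares) against XX Rnf12+/-, ordered by the value in XCastO, with bars for the SE and filled symbols where the edgeR adjusted p was under 0.05. Tfe3 is the highest in both, and most of the others lie below 0, with medians of -0.44 and -0.54.

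Several stem cell markers were also lower in XO cells, with 4 of 7 called in XCastO and 5 of 7 in XMusO. Others were not: Zfp42 measured 1073 and 993 TPM in XCastO against 892 and 914 TPM in XX Rnf12+/-. Pou5f1 measured 2016 and 1994 TPM in XMusO against 1893 and 1958 TPM in XX Rnf12+/-. Of the 4 expressed macrophage markers 1 and 2 were lower in XCastO and XMusO. Laptm5 measured 22.0 to 35.4 TPM in XO and 63.7 to 134 TPM in the XX libraries of the 2 groups, while the other 4 macrophage markers summed to 12.4 to 27.1 TPM and 7.08 to 57.5 TPM, which overlap. The part of these markers in the lower levels of lysosome genes was not tested. Of the other 33 lysosome genes 12 fell and 3 rose in XCastO and 18 fell and 2 rose in XMusO, among them Cd63, which fell by 1.38 in XMusO. Of 16 genes of the Rag and mTORC1 machinery 8 rose and 3 fell in both. Of all genes, 20.4% were lower and 21% higher in XCastO, and 27.5% lower and 26% higher in XMusO. The XO lines differed from each other in 4 of 41 genes, where 9.03% of all genes were called: Atp6v0c was higher in XMusO by 0.57 (SE 0.106, adjusted p = 0.00337), and Npc2 (-0.44), Ids (-0.53) and Gla (-0.53) were lower, with SEs of 0.0925 to 0.157 and adjusted p-values of 0.00757, 0.0225 and 0.0416. This count was 0 with only these 4 libraries in the fit and without replicate 2 of XMusO, and 2 without replicate 1 of XCastO or of XMusO. The strain of the X and the state of Rnf12 cannot be told apart between these lines.

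In the batch of 6, Rnf12+/- against wild type gave 0 of 41 genes by edgeR and 1 by DESeq2, where 0.00854% of all genes were called by edgeR. At an unadjusted p under 0.05 there were 3. A block on the replicate number gave 6, of which 2 were higher and 4 lower. The shares of all genes for the counts of 3 and 6 are not given here. Mitf measured 14.4 and 13.5 TPM in XX wild type and 7.38 and 10.0 TPM in XX Rnf12+/-, with a difference of -0.66 (SE 0.19, adjusted p = 0.441), and Tfe3 differed by -0.29 (SE 0.0816, adjusted p = 0.441). Deletion E against XX Rnf12+/- gave 0 of 41 by edgeR and 1 by DESeq2, where 0.273% of all genes were called by edgeR. At an unadjusted p under 0.05 there were 7, again with no share of all genes beside them. Tfe3, on 2 copies in E, measured 96.9 and 113 TPM and differed by 0.37 (SE 0.0966, adjusted p = 0.117).

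The letters in the promoter can be set beside these changes. Of the 15 tested genes with the core CACGTG, 11 rose and 0 fell in deletion C, with a median of 0.42, and of the 21 without it 15 rose and 2 fell, with a median of 0.38. In AB 6 of 15 and 5 of 21 fell, with medians of -0.32 and -0.29. In XCastO 11 of 15 and 10 of 21 fell, with medians of -0.55 and -0.21. Between 1 and 2 copies of Tfe3, 0 of 15 and 0 of 21 were called, with medians of -0.20 and -0.19. Of all genes, 21.9% were higher and 21.3% lower in C, 1.87% lower in AB and 20.4% lower in XCastO, and 0.0342% were called between 1 and 2 copies of Tfe3. The counts by promoter are over the genes with a promoter in the table and were not tested.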

How the data were processed

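After trimming, the authors mapped reads to the mouse genome mm10 with positions that differ between 129/Sv and Cast/Ei masked, split the aligned reads by allele and deposited a table of whole-number counts per gene (total, Mus and Cast). Per the labels the tools included Trim Galore 0.6.7, HISAT2 2.2.1, SAMtools 1.10 and HTSeq 0.12.4, while the study's methods name featureCounts as the counter; which of them made the table is not settled here. Poly(A) RNA libraries were stranded.

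The total counts were tested with edgeR 4.0.16 (quasi-likelihood test, R 4.3.3). The offset was the library total times a TMM factor from autosomal genes, and for genes inside a deletion, or on the X of XO cells, the offset also held the number of copies relative to 2, so that differences are per copy unless named as total. All 11703 genes with a mean over 5 TPM in XX Rnf12+/- entered each fit, p-values were adjusted by Benjamini-Hochberg over all of them, and an adjusted p under 0.05 counted as called (risen or fallen). TPM used union exon lengths of GENCODE M21, which 55240 of 55421 gene IDs matched; 181 did not and have no TPM. Lines were compared within their own library batch, single lines against the mean of the other 11, with the spread taken from clones. Deletion borders came from the study. Allelic read rates were compared by exact permutation tests over libraries, which take clones of the same line as independent.

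The members and lists, and the rule that a comparison names with fold changes the X-linked members, the 3 factors and at most 12 called members by adjusted p, were chosen with earlier results of these data known. The fits were tested on simulated data with 200 changed genes. Alternatives were DESeq2 1.42.0, RLE scaling, a filter of 10 counts in 2 libraries, a block on the replicate number, no copy number in the offset, and libraries left out.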

Additional observations from a re-analysis of the deposited data

Results flagged for a closer look

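Deletions C and C-G both lack region C, and 22 of 41 genes differed between them by the direct edgeR test, 21 of them higher in C, where 12% of all genes were higher and 12.6% lower. C-G is 1 clone, assumed to vary like the clones of other lines. The XO lines XMusO and XCastO differed from each other in 4 of 41 genes, where 9.03% of all genes were called, and in 0 of 41 with only these 4 libraries in the fit.

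Reads of the absent Mus allele were found in XCastO cells, which carry the Cast X alone. In replicate 2 of XCastO 41.9% of the reads of Lamp2 with an allele were Mus, 36 of 86 reads, and in replicate 1 it was 4 of 39. For Tfe3, 10.0% of such reads were Mus in replicate 1, 52 of 519, and 3.15% in replicate 2, 21 of 666. For Ids it was 5.94% (6 Mus reads) and 15.2% (7 Mus reads) in the 2 replicates, for Atp6ap2 6 of 75 and 7 of 76 reads, and for Atp6ap1 0 of 7 and 0 of 6. In XMusO 0 to 2 reads of these genes were Cast in each library. The source of these reads was not tested. No group held 4 or more libraries, so no library was tested as an outlier within its group.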

How the results depend on the processing

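A fold change under another setting was taken as unchanged where it kept its direction and side of the threshold. A count of genes was taken as unchanged where it stayed close in ratio to the main count, and as moved otherwise. Of the main results, 185 values were unchanged, 29 moved, 3 reversed, 1 became significant and 2 lost significance. For single genes 1626 were unchanged, 112 lost and 9 gained significance, and 25 reversed. The cause was not tested for any of these. Several alternatives were chosen after seeing the data: leaving out single clones or deletions AB or C, the comparisons of C with C-G and of AB with A, and wild type as a reference for XO cells. A fit without replicate 1 (or 2) of every line has no residual degrees of freedom and was not run.

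With 1 term per line, 14 members were called for 1 against 2 copies of Tfe3, and the share over all genes was not counted. Leaving out 1 library gave a difference per copy of Tfe3 from -0.00789 to 0.211 (reversed without AB), of Lamp2 from 0.671 to 1.07 (not significant at 0.701 and 0.671), of Ids in E from 0.315 to 0.629, and of Atp6ap1 in E from -0.0328 to 0.240 (reversed at -0.0328 and -0.0139). Counts of members then ran from 2 to 8 in A, 6 to 16 in AB, 22 to 33 in C, 14 to 16 for C against C-G, 0 to 1 in E, 19 to 21 in XCastO, 26 to 28 in XMusO, 0 to 4 for XMusO against XCastO, and 66 to 125 pairs of gene and line. Without J and I-TEL they were 2 in A, 6 in AB and 60 pairs. With only the 4 libraries compared they were 10 in XCastO and 0 between the XO lines. E had 1 by DESeq2 and 1 with no copy number in the offset, and Rnf12+/- against wild type had 1 by DESeq2.

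Other single genes reversed at values near 0, here with their range over libraries left out. These were Ids for 1 against 2 copies of Tfe3 (-0.394 to 0.0684), Tfe3 in A (-0.0296 to 0.00167, and 0.00121 without AB), Atp6ap1 in A (-0.0226 with the count filter and -0.0210 without AB), Gla for C against C-G (-0.0489 to 0.00785, and 0.0142 with the filter) and Ids in XCastO (-0.208 to 0.106, and 0.0685). Between the XO lines they were Tfe3 (-0.0247 to 0.322), Mitf (-0.545 to 0.0527), Lamp2 (-0.658 to 0.152), Atp6ap1 (-0.114 to 0.0519, and 0.0481) and Atp6ap2 (-0.141 to 0.204). For Rnf12+/- against wild type they were Atp6ap2 (-0.103 to 0.100, 0.0540, and 0.00463 with the filter), Ids (-0.213 to 0.127, and 0.0996), Gla (-0.0577 to 0.265) and Atp6ap1 (-0.0706 to 0.201).

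The replicate block left 7 members called in AB and gave 6 for Rnf12+/- against wild type, where none was called without it. With 2 pairs, the deviations of same-numbered libraries of these groups correlated at 0.75. Between groups of 1 batch such correlations ran from -0.31 to 0.75. The fibroblast sums ran alike by number, at 260 and 94.7 TPM in XX wild type and 313 and 97.5 TPM in XX Rnf12+/-. Nothing in the labels ties a number across groups, and whether these libraries share more than a number was not tested.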
